A study of Mus musculus with 2 samples.

Results

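The 4 Hox gene clusters of the mouse were examined in ATAC-seq peak lists of ileal enteroids, which are epithelial cultures grown from intestinal crypts. Members were all protein-coding genes whose symbol is Hoxa, Hoxb, Hoxc or Hoxd followed by a number, which gave 39 genes of 22225 protein-coding gene symbols on the mm9 assembly. For the windows of the 4 clusters, each extended by 50 kb on both sides, 94 of the 90445 control peaks and 75 of the 71282 Taf4-inactivated peaks were taken. Control enteroids carried Taf4 lox/lox and the other line Taf4 lox/lox::VilCreERT2, in which a tamoxifen-activated Cre is driven by the promoter of villin, a gene of the intestinal epithelium. Both were of the C57Bl6/129sv strain, were derived from the ileum of mice aged 4 months, received 1 µM 4-hydroxytamoxifen (4-OHT) for 3 days and were collected at day 3 of culture. The floxed Taf4 allele and the drug were thus common to both, and loss of Taf4 and presence of the Cre cannot be told apart. There was 1 library per genotype, so the differences given here have no replicate check and no p-value was computed.

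Hox genes encode homeodomain transcription factors that give cells their position along the body axis. Genes of each cluster lie in the order of their paralogue numbers, from 1 at the end that acts in anterior tissue to 13 at the end that acts in the posterior body, and genes of the same number in different clusters derive from a common ancestor. Silent Hox genes are textbook targets of Polycomb proteins, and Trithorax proteins such as the Kmt2a (Mll1) complex keep active ones on. In the gut the regional pattern of Hox and Cdx genes is laid down in the embryo. Taf4 is a subunit of TFIID, the general factor that binds core promoters.

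The 250 bases before the most upstream annotated start site are shown for 4 genes, to show how far CpG content varied between them. Hoxc13 and Hoxd8 had the highest accessibility of their clusters, averaged over both libraries, and Hoxa2 and Hoxd10 the lowest of theirs. The runs were read from NCBIM37 (mm9), 5′ to 3′ along the gene's strand, with every CpG in capitals, and hold no annotated UTR base. They lie at chr15:102751284-102751533 for Hoxc13 (plus strand), chr2:74542422-74542671 for Hoxd8 (plus), chr6:52115413-52115662 for Hoxa2 (minus) and chr2:74528897-74529146 for Hoxd10 (plus).
Hoxa2: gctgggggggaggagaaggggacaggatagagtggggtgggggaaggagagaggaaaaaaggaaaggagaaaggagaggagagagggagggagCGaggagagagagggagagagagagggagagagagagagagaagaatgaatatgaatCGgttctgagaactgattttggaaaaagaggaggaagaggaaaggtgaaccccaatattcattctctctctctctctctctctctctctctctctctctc
Hoxc13: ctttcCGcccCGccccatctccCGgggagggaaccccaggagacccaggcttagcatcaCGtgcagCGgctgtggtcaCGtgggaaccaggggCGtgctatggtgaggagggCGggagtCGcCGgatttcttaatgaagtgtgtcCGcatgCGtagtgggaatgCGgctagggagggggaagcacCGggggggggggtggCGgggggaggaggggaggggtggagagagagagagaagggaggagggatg
Hoxd8: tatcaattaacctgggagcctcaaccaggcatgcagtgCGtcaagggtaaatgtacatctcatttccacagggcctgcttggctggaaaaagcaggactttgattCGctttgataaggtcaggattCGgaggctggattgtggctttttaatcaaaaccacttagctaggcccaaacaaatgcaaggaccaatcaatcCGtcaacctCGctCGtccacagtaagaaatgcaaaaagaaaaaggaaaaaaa
Hoxd10: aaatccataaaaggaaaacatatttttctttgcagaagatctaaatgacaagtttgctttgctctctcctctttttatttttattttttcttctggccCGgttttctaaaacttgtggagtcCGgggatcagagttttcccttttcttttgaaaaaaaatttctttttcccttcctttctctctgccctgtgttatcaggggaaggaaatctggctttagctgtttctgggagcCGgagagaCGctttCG
The Hoxa2 run held 2 CpGs, in a long stretch of GA and CT repeats, and the Hoxc13 run 15. Hoxd8, at the highest mean percentile of the Hox genes, had 6 against 5 in Hoxd10. The Hoxd8 peaks began at 74542663 in control and 74542729 in Taf4-inactivated enteroids, against a start site at 74542672, so nearly all of their length lay beyond the run shown.

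The read number was not used here. Background levels solved from the fold enrichment and p of the peaks placed the depth of the Taf4-inactivated library at 60.5% of that of control. Fold enrichment is relative to the local background of the same library and its median differed, at 2.03 for control peaks and 2.45 for those of the other library, so peaks were compared by the percentile of their fold within their own list. The start site of the targeted gene, annotated as Taf4a, had a peak in both lists, at percentile 74.7 and 58.7, which does not report whether the floxed exons were present. All 8 epithelial markers had a start site peak in both libraries, among them Vil1, Epcam and Cdh1, and 0 of 4 immune markers had one in either. Of 5 fibroblast markers 3 had one in both (Col1a1, Col1a2 and Pdgfra), endothelial markers had 2 of 4 in control and 1 of 4 after inactivation, and muscle and neuron markers 4 of 4 and 3 of 4. A peak marks accessible DNA and not expression, and the part of other cell types in the Hox values was not tested.

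Most Hox genes had accessible start sites, with peaks low in fold, and fewer had them in the Taf4-inactivated library. The depth of that library, as solved from the fold and p of the peaks, was 60.5% of control. Read totals were not used, and the part of depth in these counts was not tested. A peak within 1000 bp of an annotated start site was present for 34 of 39 Hox genes (87.2%) in control and 30 of 39 (76.9%) in Taf4-inactivated enteroids, against 68.5% and 65.7% of all protein-coding genes. Both libraries had one for 29 Hox genes, control alone for 5 and the Taf4-inactivated library alone for 1, where the shares over all genes were 62.8%, 5.69% and 2.88%. Neither had one for 4 Hox genes, against 28.6% of all genes. The median Hox start site peak was at percentile 58.2 in control and 44.6 after inactivation, compared with 86.5 and 81.5 over all protein-coding genes with a peak. Ranked by pileup, the reads stacked at a peak as solved from fold and p, the Hox medians were 76.8 and 54.6. Those of all protein-coding genes were 87.7 and 85.9. In the top 10% of the list by fold were 3 Hox peaks in control (Hoxd1, Hoxd8 and Hoxd13) and 0 after inactivation, whereas 41.8% and 32.1% of all start site peaks were there.

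For the 29 Hox genes with a peak in both libraries, the highest peak was at a lower percentile after inactivation for 23. Over all 13966 genes with both peaks this share was 65.8%. The median difference was −20.2 percentile points for Hox and −2.77 for all genes. Differences of at least 25 points downwards were found for 10 Hox genes, against 9.09% of all genes, and upwards for 3, against 5.94%. Since genes at the top of the list have little room, the share was also taken over genes under percentile 90 in control: 9 of 26 Hox genes were lower by at least 25 points there, against 14.3% of all such genes. In 5 of the 29 genes the highest peaks of the libraries did not overlap (Hoxa3, Hoxa7, Hoxa10, Hoxb7 and Hoxd12). Peaks at different positions were thus compared for them.

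**Figure D1:**
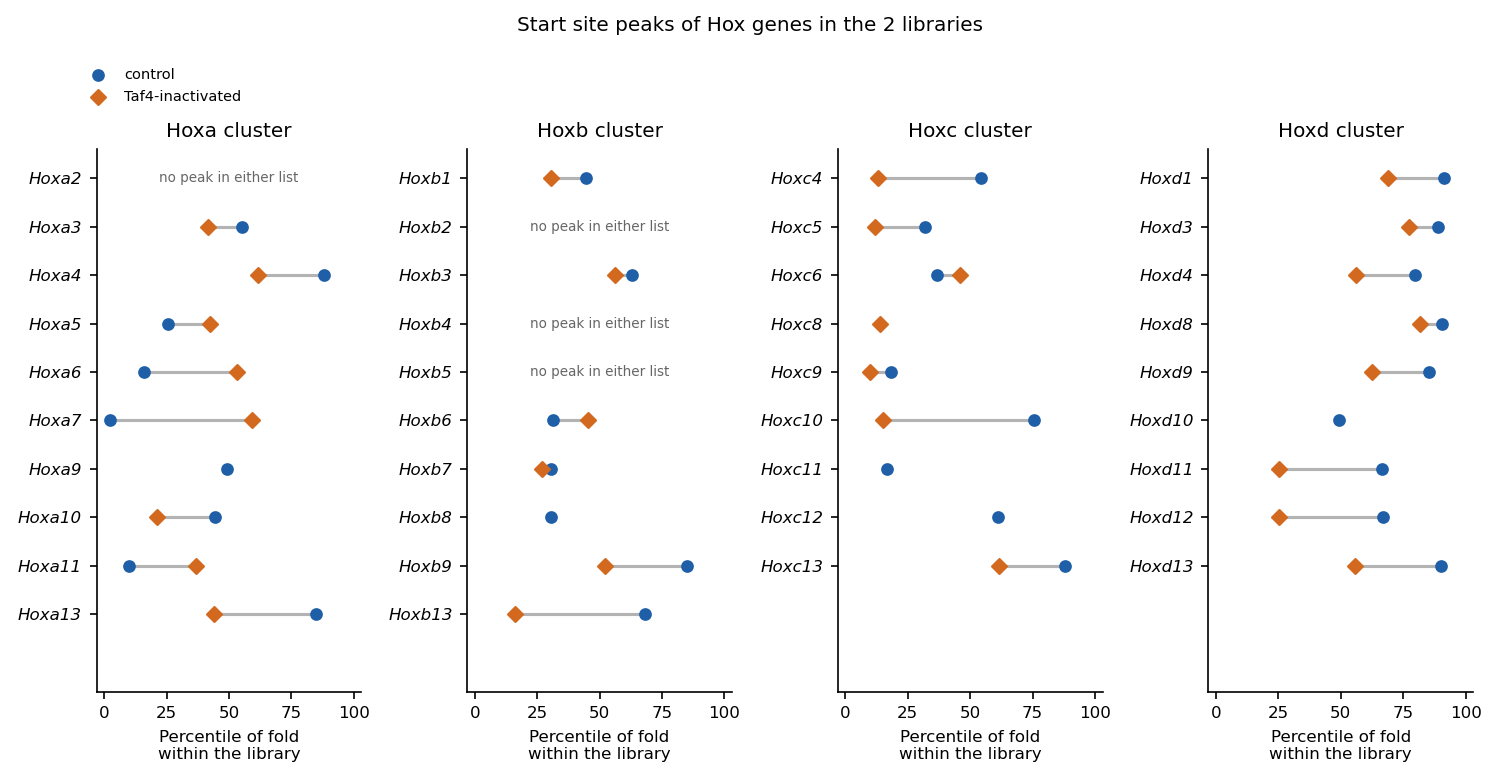
Percentile of fold enrichment within its own library (x axis, 0 to 100) of the highest start site peak of the Hox genes, 1 gene left out, in control (circles) and Taf4-inactivated (diamonds) enteroids, 1 library each. Markers are missing where a library had no peak within 1000 bp. Diamonds lie right of circles for Hoxa5, Hoxa6, Hoxa7, Hoxa11, Hoxb6 and Hoxc6, and left for the other genes drawn with both.

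The Hoxd cluster had the highest start site percentiles by fold. In control all 9 Hoxd genes had a start site peak, with a median at percentile 85.2, and after inactivation 8 of 9 had one, with a median of 59.3. The medians of the other clusters in control were 46.8 for Hoxa (10 of 11 genes), 44.5 for Hoxb (7 of 10) and 45.5 for Hoxc (8 of 9). After inactivation they were 43.8 (9 genes), 37.9 (6 genes) and 13.7 (7 genes). By fold Hoxc thus stood close to Hoxa and Hoxb in control and lowest of the 4 after inactivation. By pileup Hoxb was lowest after inactivation, with a median of 38.96 against 44.76 for Hoxc. The highest median by pileup was that of Hoxd in control, at 85.6, but that of Hoxa after inactivation, at 69.2 against 61.5 for Hoxd. All 8 Hoxd genes with both peaks were at a lower percentile after inactivation, with differences from −8.92 (Hoxd8) to −42.0 points (Hoxd12). The highest peaks of Hoxd12 in the libraries did not overlap.

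The anterior genes, paralogues 1 to 3, hold the hindbrain and neck patterning genes. Of 8, 6 had a start site peak in both libraries, and their medians were at percentile 70.1 and 62.4. Hoxd1 was the highest Hox gene of control at percentile 91.5 and stood at 68.7 after inactivation. Hoxb1 stood at 44.5 and 30.4, Hoxb3 at 63.1 and 56.0, and Hoxd3 at 88.9 and 77.5. All 6 anterior pairs were lower after inactivation, with the largest difference at −22.8 points (Hoxd1), and none of them passed 25.

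The central genes, paralogues 4 to 8, went both ways by fold but not by pileup, the number of reads stacked at a peak as solved from the deposited fold and p. Of 15, 12 had a start site peak in each library, and 11 had both. Their median was at percentile 31.6 in control and 45.7 after inactivation, while the median of the paired differences was −3.31. By pileup the medians were 75.3 and 64.4, and 10 of the 11 pairs were lower, the exception being Hoxa7 at 1.12 points. By fold 5 of the 11 were higher after inactivation, Hoxa5, Hoxa6 and Hoxa7 side by side in one cluster, and Hoxb6 and Hoxc6 in others. Hoxa5, which is needed for lung and gut development, stood at percentile 25.4 in control and 42.5 after inactivation. Hoxa6 stood at 15.8 and 53.3, and Hoxa7 at 2.26 and 59.3. At the most upstream start site of Hoxa7 itself, 52171853, the control list held only a peak at percentile 1.21 that began 78 bases upstream (52171931 to 52172328), and the peak of the inactivated library spanned the site (52171432 to 52171873). Against these, Hoxa4 stood at 88.1 and 61.7 and Hoxc4 at 54.2 and 12.9. Hoxd8 was highest of the central genes in both libraries, at 90.6 and 81.7, and had the largest −log10 q of all Hox start site peaks in both, 7.43 and 9.45.

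The local background that enters the fold was above the Hox median along the Hoxa5 to Hoxa11 stretch in control. Relative to the lowest background of the library, the control background under the start site peaks of Hoxa5, Hoxa6, Hoxa7, Hoxa9, Hoxa10 and Hoxa11 was 1.60 to 1.83, where the median of all Hox genes was 1.35 in control and 1.37 after inactivation. Hoxd8, Hoxd9, Hoxd11 and Hoxd12 lay in the same range, at 1.60 to 1.69. After inactivation the background was 2.31 for Hoxa5, 1.72 for Hoxa6 and 1.83 for Hoxa7, but 1.34 for Hoxa10 and 1.41 for Hoxa11. Pileup put the central genes of this stretch much higher within control: Hoxa5 at percentile 84.4, Hoxa6 at 75.4 and Hoxa7 at 77.6. By pileup the same genes stood at 84.1, 74.0 and 78.7 after inactivation. The difference of Hoxa6, 37.5 points by fold, was thus −1.37 by pileup, that of Hoxa11 was 26.8 and −22.8, and that of Hoxa7 was 57.1 and 1.12. By pileup 0 Hox genes were higher by at least 25 points, against 2.56% of all genes, and 10 were lower, against 6.77%. Of the 10 lower by fold, 8 were also among the 10 lower by pileup. Pileup is solved from the same fold and p, so it is not a separate measurement.

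The posterior genes, paralogues 9 to 13, had the largest median difference of the 3 sections. All 16 had a start site peak in control and 12 after inactivation. Of these 12, 11 were at a lower percentile after inactivation, 8 of them by at least 25 points, and the median difference was −33.6 points by fold and −27.7 by pileup. Medians were at percentile 66.8 in control and 31.1 after inactivation. By pileup 9 of the 12 were lower by at least 25 points. By fold 7 posterior genes were lower by this much when only genes whose highest peaks overlap were kept. Hoxc10 had the largest single difference: its control peak, over a coding exon at 102797383 to 102798236 on chromosome 15, was at percentile 75.7, and the peak at 102796984 to 102797797 after inactivation was at 15.1. Hoxb9 stood at 84.9 and 52.2, Hoxd9 at 85.2 and 62.5, and Hoxd11 at 66.6 and 25.4.

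Paralogue group 13, the genes of limb ends, genital tract and hindgut, is held by all 4 clusters, as are numbers 4 and 9. Of these 3 numbers it was the one for which every member was lower by at least 25 points. Hoxa13 (ENSMUSG00000038203.11, chromosome 6, 52207693 to 52210874, minus strand) had a peak over its start site at percentile 85.0 in control and 43.8 after inactivation. Hoxb13 (ENSMUSG00000049604.3, chromosome 11, 96055630 to 96058761, plus strand) stood at 68.2 and 16.0, and its peak was 2258 bp wide in control and 754 bp after inactivation. Hoxc13 (ENSMUSG00000001655.6, chromosome 15, 102751534 to 102759245, plus strand) stood at 88.0 and 61.3. Hoxd13 (ENSMUSG00000001819.4, chromosome 2, 74506367 to 74509656, plus strand) stood at 90.1 and 55.7. By pileup their differences ran from −25.9 (Hoxd13) to −39.5 points (Hoxb13). Ranked by width in place of fold, Hoxa13 and Hoxd13 turned the other way, at 5.11 and 10.1 points, as did Hoxc10 and Hoxd12, at 1.69 and 39.1, and the median difference of all Hox genes was −1.77. Of the posterior pairs that did not pass 25 points downwards, Hoxa11 was higher by fold, at 10.04 and 36.9, and Hoxa10, Hoxc9 and Hoxd9 were lower, with differences of −23.0, −8.26 and −22.7. The Hoxa10 value compared peaks that did not overlap. At its most upstream start site the control peak stood at percentile 7.19 and the peak after inactivation at 21.3, so Hoxa10 was higher there.

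**Figure D2:**
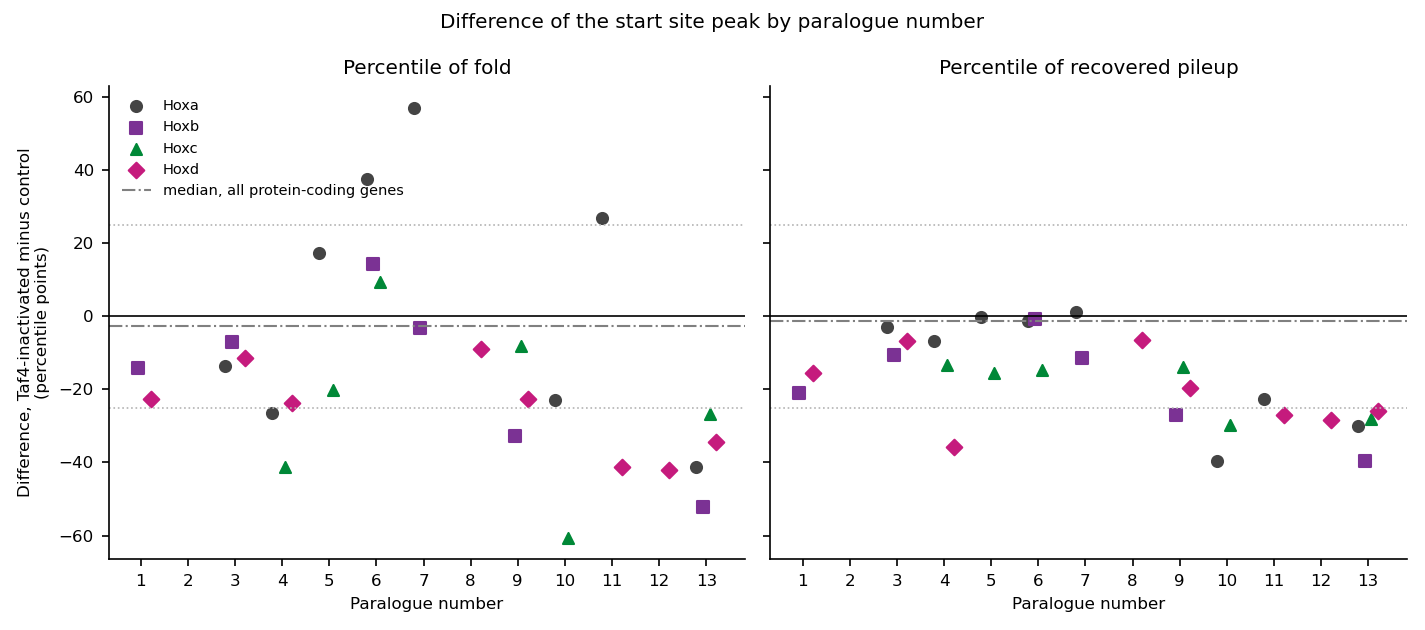
Difference in percentile points between the Taf4-inactivated and the control library (y axis) of the highest start site peak of Hox genes against its paralogue number (x axis), by fold enrichment (left) and by recovered pileup (right), for genes with a peak in both libraries, 1 gene left out. Dotted lines mark 25 points either way and the dash-dotted line the median of all protein-coding genes, −2.77 on the left and −1.42 on the right. Positive values of Hoxa5, Hoxa6, Hoxa7 and Hoxa11 on the left are near 0 or negative on the right, while all 4 genes numbered 13 are below −25 in both.

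The 5 genes with a start site peak in control alone were Hoxa9, Hoxb8, Hoxc11, Hoxc12 and Hoxd10, so 4 of them were posterior. Hoxa9, a gene known for its part in blood stem cells and leukaemia, had its control peak at 52179725 to 52180875, percentile 49.2, and the nearest peak after inactivation was 2769 bp from a start site. Hoxc12 stood at percentile 61.3 in control, with the nearest peak after inactivation 1826 bp away, and Hoxc11 at 16.8, with the nearest 5555 bp away. The Hoxb8 peak lay in a coding exon, at percentile 30.3, counting for an alternative start site of this gene and for the most upstream one of Hoxb7. The Hoxd10 peak (74529534 to 74531186, percentile 49.1) did overlap a narrower peak of the other library, which began 1544 bp from the start site and so beyond the limit. Hoxc8 had a peak after inactivation alone, 87 bp from the start site, at percentile 13.7.

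Hoxa2, Hoxb2, Hoxb4 and Hoxb5 had no start site peak in either library. Hoxb2 and Hoxb4 were just outside the limit, with control peaks 1116 bp and 1250 bp from the start site, and Hoxb4 had a peak 1245 bp away after inactivation. Just inside was the Hoxb7 peak after inactivation, 952 bp from an alternative start site. With 22 of the 39 genes having more than 1 annotated start site, the most upstream site alone was also counted. It had a peak for 29 genes (74.4%) in control and 24 (61.5%) after inactivation. The share of all protein-coding genes at that site was not computed. Hoxb5 had its nearest peaks 3064 bp and 3030 bp away and Hoxa2 4445 bp and 4857 bp.

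Stricter limits on the −log10 q of the peaks kept fewer Hox genes. A start site peak with −log10 q of at least 2 was present for 25 of 39 Hox genes in control. After inactivation 21 of 39 had one. The shares of all protein-coding genes at this limit were 60.8% and 60.4%. A start site peak with −log10 q of at least 5 was present for 6 Hox genes in control (15.4%: Hoxb9, Hoxd1, Hoxd3, Hoxd8, Hoxd9 and Hoxd13) and 3 after inactivation (7.69%, Hoxd3 and Hoxd8 among them). Over all protein-coding genes the share was 35.6% in control and 46.6% after inactivation. At this limit the Hox count was lower and the count of all genes higher in the inactivated list.

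Across the windows, peaks were dense in both libraries. In control 94 peaks covered 9.11% of the 892 kb, or 10.5 peaks per 100 kb, and after inactivation 75 peaks covered 5.93%, or 8.41 per 100 kb. Genome-wide the densities were 3.53 and 2.79 peaks per 100 kb and the covered shares 2.58% and 1.87%. Peaks within 1000 bp of a Hox start site numbered 44 in control and 34 after inactivation, and the others 50 and 41. Of the control peaks 41 (43.6%) had no overlapping peak in the other list, against 52.7% of all control peaks, and of the peaks after inactivation 22 (29.3%), against 39.8%. The 53 control peaks with a partner had a median width of 999 bp and the 41 without one 425 bp.

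The clusters differed in where the peaks without a partner lay. After inactivation Hoxd had 17 peaks, 16 of them overlapping one of the 24 control peaks, and the covered share of its window was 10.97% in control and 7.11% after inactivation. Hoxa had 25 and 17 peaks covering 11.8% and 6.72%, with 11 control and 3 inactivated peaks without a partner. Hoxb, the longest window at 274 kb, had 28 and 23 peaks covering 8.48% and 4.59%, and 14 and 9 of them had no partner. Hoxc alone had no smaller cover after inactivation: 17 and 18 peaks covered 5.69% and 5.78%, with 8 and 9 unpartnered. Among the 9 after inactivation were peaks beyond Hoxc4, 16851, 36733, 41562 and 49453 bp from its nearest start site, at percentiles 22.8, 16.9, 60.9 and 8.5.

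**Figure D3:**
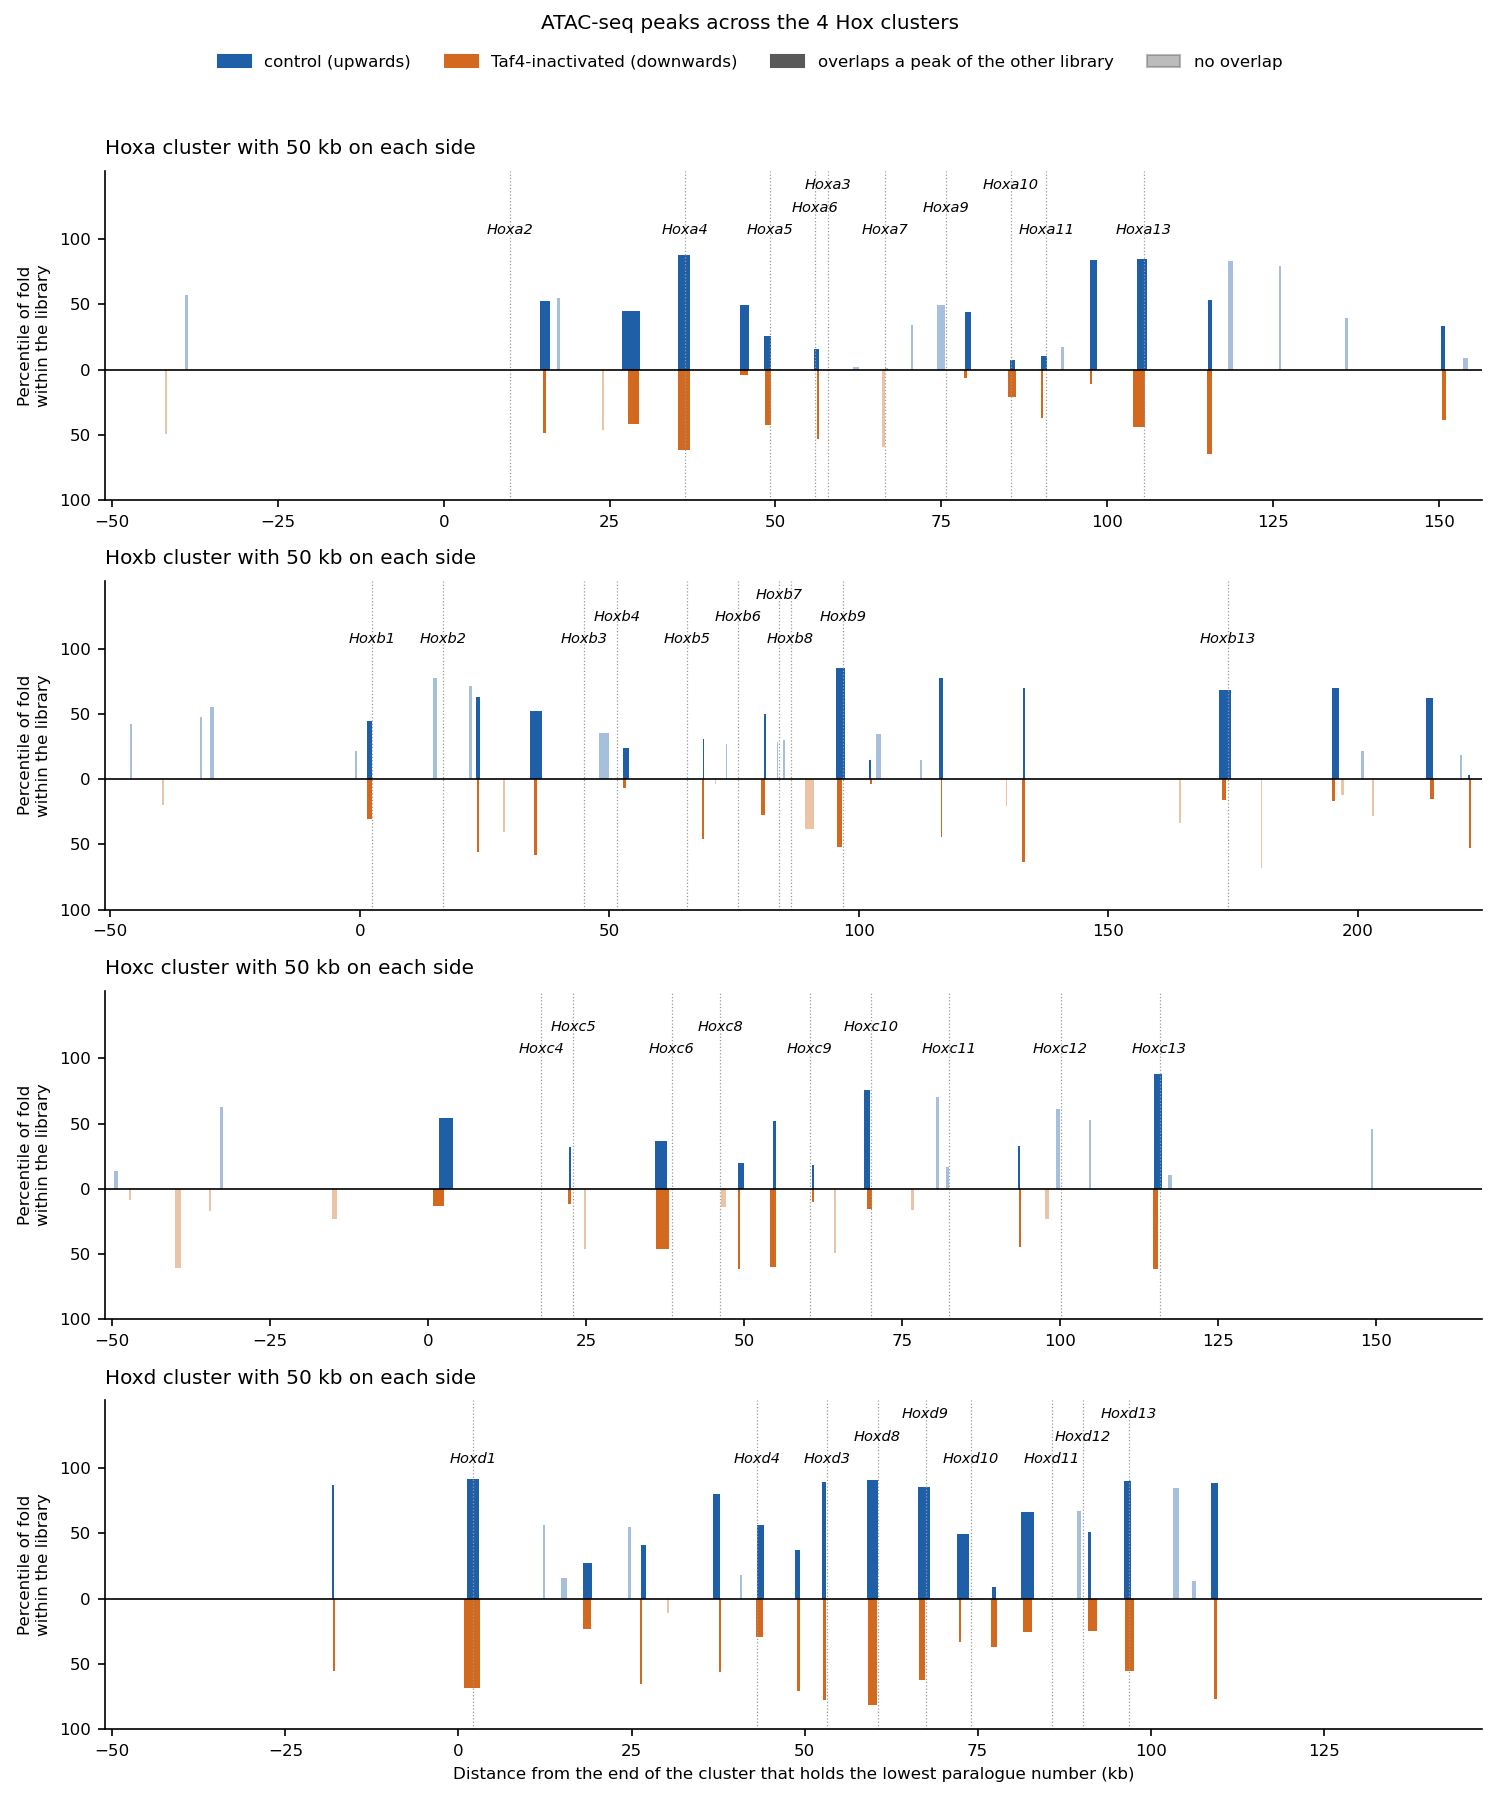
Peaks of the 4 Hox clusters with 50 kb on each side, drawn to scale along the distance in kb from the end with the lowest paralogue number (x axis), with the percentile of fold within the library as height (y axis), upwards for control and downwards for Taf4-inactivated enteroids. Dotted lines are the most upstream start sites, pale bars have no overlapping peak in the other library, bars narrower than 0.35 kb are drawn at that width, and 1 gene and its start site peaks are left out. Hoxd has 1 pale bar downwards, while Hoxc has 9.

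Several peaks beyond the start sites were among the highest of their windows. In the Hoxd window a peak over a coding exon and UTR of Evx2, the neighbouring homeobox gene, at 74493538 to 74494521 (chromosome 2), stood at percentile 88.8 in control and 76.7 after inactivation. A peak 20081 bp from the Hoxd1 start site, beyond the gene (74621118 to 74621536) and in no annotated gene, stood at 87.1 and 55.3. In the Hoxa window a peak between Hoxa11 and Hoxa13 (52202859 to 52203857) stood at 84.0 in control and 11.3 after inactivation, and one beyond Hoxa13 (52223640 to 52224288) stood at 83.5 in control with no partner. A peak between Hoxb13 and Hoxb9, 36073 bp from Hoxb9 (96096300 to 96096698), was at 69.8 and 63.3. The largest percentile in the windows was thus held by Hox start sites in both libraries, Hoxd1 in control and Hoxd8 after inactivation.

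Base composition was compared over the window from 250 bp before to 50 bp after the most upstream start site. Hox promoters had a median observed to expected CpG ratio of 0.70, against 0.54 over all protein-coding promoters. A ratio of at least 0.6, a usual limit for CpG islands, was held by 23 of 39 Hox promoters (59.0%), compared with 45.3% of all. Grouped by peaks at any start site, among the 4 genes without a peak 0 reached it, with the highest at 0.57 (Hoxb2), against 5.22% of all genes without a peak. Among the 29 genes with a peak in both libraries 18 reached it (62.1%, against 67.2% of all such genes), and among the 5 with a control peak alone 4 did (against 16.9%). Hoxa4 had the highest ratio at 1.23 and Hoxa2 the lowest at 0.10.

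Letters were then searched on both strands of the same windows. TTTATNG, the kind of site bound by caudal-related (Cdx) and posterior Hox proteins, was in 9 of 39 Hox promoters (23.1%), against 10.4% of all protein-coding promoters of the same length. Of these 9, 7 were central genes, from a total of 15, while 1 was anterior and 1 posterior. They are shown here as 1 run of 30 bases for each gene, since most of them belong to central genes. Each run is from mm9, 5′ to 3′ on the strand that reads TTTATNG, with those letters in capitals.
Hoxa7: aaacagccctctTTTATGGgtattgccccc
Hoxb3: aaagttttcaacTTTATGGctccaaaattt
Hoxb4: ctggctgcaactTTTATGGttcctcattgc
Hoxb6: aacaacaaggaaTTTATTGcatttcttcat
Hoxb8: cgaagctgcagtTTTATAGctgtagaggaa
Hoxc4: attaaaccaagtTTTATGGtgtagggagag
Hoxc6: gaacgtgaacttTTTATTGtggtttgtccg
Hoxd4: agccaaaggttaTTTATGGttctgcagagc
Hoxd10: atatgttttcctTTTATGGattttgtaaaa
The capitals lie, in the order printed, on chromosome 6 at 52171977 to 52171983 (minus strand), chromosome 11 at 96184657 to 96184663 (minus), 96177775 to 96177781 (plus), 96153649 to 96153655 (minus) and 96143020 to 96143026 (plus), chromosome 15 at 102849284 to 102849290 and 102828635 to 102828641 (both plus), and chromosome 2 at 74559990 to 74559996 (plus) and 74528901 to 74528907 (minus). Hoxb8 and Hoxd4 held 3 matches each and Hoxa7 held 2. Relative to the start site the matches lay between positions −246 (Hoxd10) and 21 (Hoxd4). At the most upstream start site, where the letters were searched, Hoxa7, Hoxc6 and Hoxd4 had a peak within 1000 bp in both libraries and Hoxd10 in control alone. Hoxb3, Hoxb4, Hoxb6, Hoxb8 and Hoxc4 had none there in either, and the start site peaks given for 4 of these belong to alternative sites. TATAAA was in 7 of 39 Hox promoters (17.9%, against 13.4%) and TGANTCA, the AP-1 type, in 2 (5.13%, against 6.92%).

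A loose pattern of 12 letters, some of them free, modelled on the core of the CTCF recognition sequence, was searched because CTCF sites divide Hox clusters into domains in other cell types. It was written from general knowledge and not from a curated matrix, so its matches are not to be read as CTCF sites. It was in 1 of 39 Hox promoters (2.56%), against 2.56% of all protein-coding promoters. In the windows it occurred 65 times, on both strands. The same 12 letters accounted for 24 of these matches, and 0 of the 24 lay under a peak. Of all 65, 9 (13.8%) lay under a control peak and 11 (16.9%) under a peak after inactivation, where the peaks covered 9.11% and 5.93% of the windows. Under peaks of both libraries were 7, of which 6 are shown with 9 bases on each side, 5′ to 3′ on the strand that reads the letters, with the match in capitals, and the fixed letters are those that all 6 share.
between Hoxb13 and Hoxb9: cgctgggcaCCAGAAGAAGGCcagagctga
in Hoxb6: tcctattacCCACCAGCCGGCggcggctac
in Hoxb3: ccaaggcgcCCACAAGGCGGCctggagaca
upstream of Hoxc9: gacctcaccCCAGCAGTCGGCcttgcttcg
in Hoxc6: cacagtactCCAGGAGAAGGCtcccgttcg
in Hoxd3: gagctttgtCCAGGAGGAGGCgctgtagga
The match between Hoxb13 and Hoxb9 (chromosome 11, 96096599 to 96096610, plus strand) lay in no annotated gene, under the peak at percentile 69.8 in control and 63.3 after inactivation. That of Hoxb6 (96160668 to 96160679, plus) was in a coding exon and that within Hoxb3 (96206092 to 96206103, plus) was intronic. On chromosome 15, the match upstream of Hoxc9 (102806137 to 102806148, plus) was 733 bp before the most upstream start site and that in Hoxc6 (102831236 to 102831247, minus) was in a UTR. The match in Hoxd3 (chromosome 2, 74553978 to 74553989, plus) was in an exon of the non-coding gene 1700109F18Rik, under a peak at percentile 37.3 in control and 70.8 after inactivation.

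The clusters also hold microRNA genes, and the miR-196 and miR-10 families are known to repress Hox transcripts. Mature 5p sequences from RefSeq (GRCm38.p6) matched all 6 annotated hairpins of the windows, and are shown with the seed, bases 2 to 8, in capitals because the family members share it between clusters.
mmu-miR-10a-5p: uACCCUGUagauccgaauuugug
mmu-miR-10b-5p: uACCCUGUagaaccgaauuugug
mmu-miR-196b-5p: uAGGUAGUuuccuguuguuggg
mmu-miR-196a-5p: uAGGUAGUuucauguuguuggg
mmu-miR-615-5p: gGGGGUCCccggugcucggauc
Mir196b, in Hoxa, and Mir196a-1 and Mir196a-2, in Hoxb and Hoxc, share the seed AGGUAGU. Mir10a and Mir10b, in Hoxb and Hoxd, share ACCCUGU. The Mir196b hairpin (mm9 chromosome 6, 52180080 to 52180164, minus strand) lay inside the Hoxa9 peak found in control alone, and the nearest peak after inactivation was 3693 bp away. It was the one hairpin of the 6 under a peak. Mir196a-1 was 332 bp from a control peak and 262 bp from a peak of the other library, and Mir10b 1253 bp and 1193 bp. Mir196a-2 was 742 bp from a peak after inactivation and 2236 bp from the nearest in control. Mir615, in Hoxc, was 407 bp from a control peak and 305 bp from one after inactivation, and Mir10a 937 bp and 1726 bp.

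The bordering genes with a peak in both libraries had strong ones. Hibadh, an enzyme of valine breakdown, Mtx2, a part of mitochondrial protein import, Lnp, which shapes the endoplasmic reticulum, and Calcoco1 and Skap2 had a start site peak in both libraries, at percentiles 93.7 to 99.8 in control and 94.98 to 99.2 after inactivation. Their largest difference was 5.5 points (Calcoco1). The homeobox genes Evx1 and Evx2, which flank Hoxa13 and Hoxd13, were instead low in control, at percentiles 11.7 and 13.7, and had no start site peak after inactivation. Skap1 and Ttll6 had one after inactivation alone, at 30.3 and 52.4, and Smug1 in neither.

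Of 15 genes for Hox cofactors and regulators all had a start site peak in control and 14 after inactivation, with medians at percentile 85.4 and 74.4. Of the 14 with both peaks, 7 were lower after inactivation, and the median of the paired differences was −0.05 points. Meis1, a homeodomain partner of Hox proteins, stood at 72.1 and 74.3, and Pbx3, another partner, at 93.8 and 76.8. Cdx2, the caudal-related factor that specifies the intestine, stood at 91.8 and 94.6, while Cdx4 had a peak in control alone, at 92.8. Mll1 (Kmt2a), the Trithorax methyltransferase, stood at 57.1 and 58.3, and Men1, a subunit of its complex, at 57.8 and 74.5. Meis3 was the one gene of this list past 25 points, at 4.1 in control and 44.2 after inactivation.

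Other developmental transcription factor families, named by symbol from Alx to Vax and holding 95 genes, give the Hox values a background. A start site peak was present for 90.5% of them in control and 76.8% after inactivation, with medians at percentile 49.5 and 36.2. Of the 70 with both peaks, 21 were lower by at least 25 points and 4 higher, with a median difference of −13.1. These values lie beside those of Hox without a test of their difference, and none of the Hox values is shown to be particular to Hox. Olfactory receptor genes, 1113 in number and silent in gut, had a start site peak for 4.58% in control and 2.70% after inactivation.

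**Figure D4:**
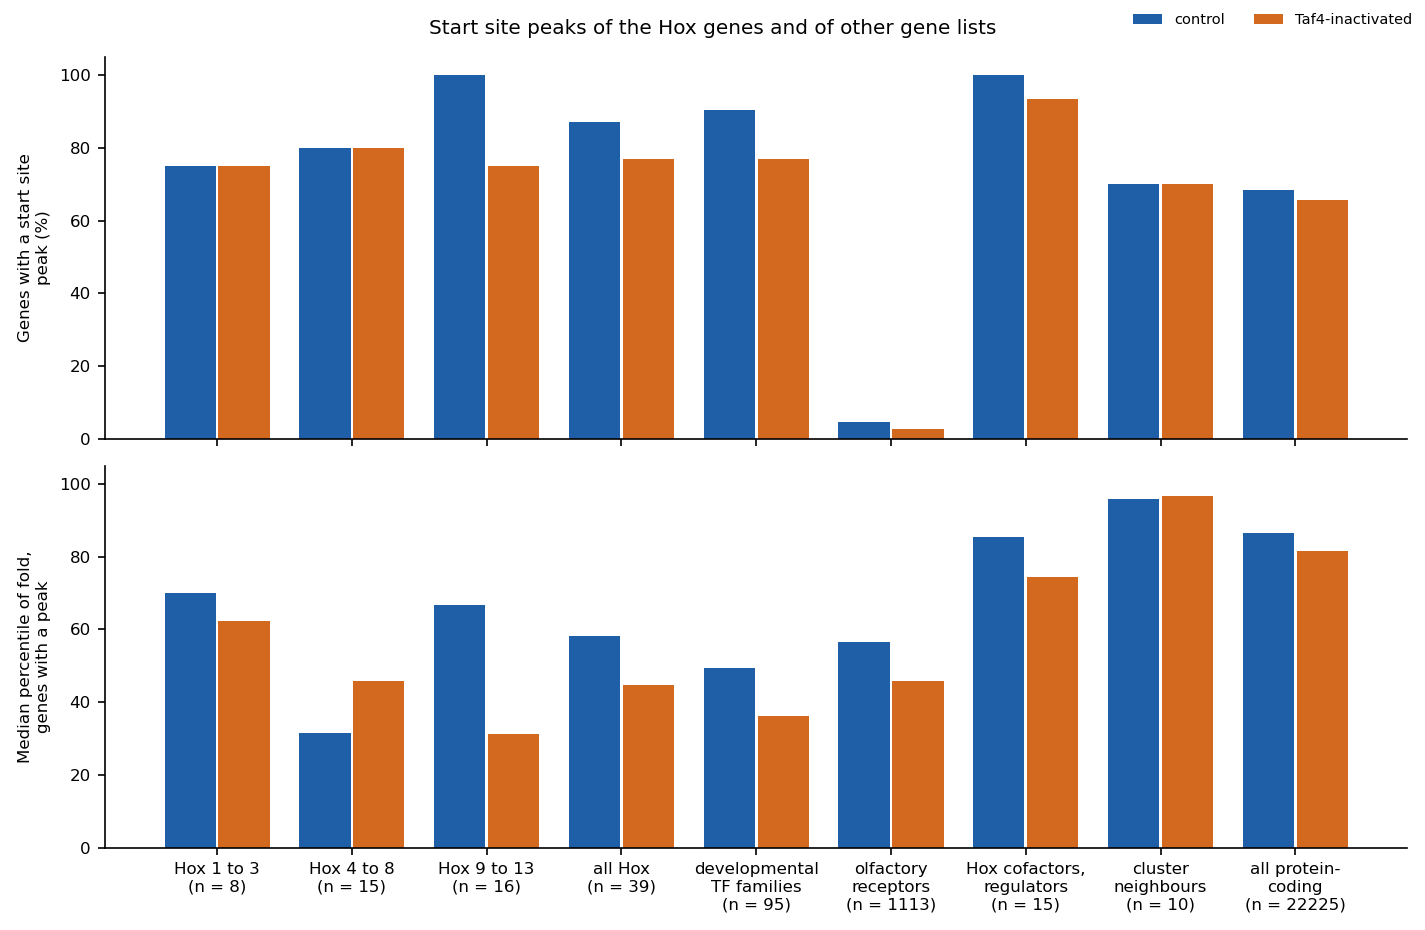
Share of genes with a start site peak (upper panel, %) and median percentile of fold of those peaks (lower panel) for Hox genes by section and for other gene lists, in control (blue) and Taf4-inactivated (orange) enteroids, 1 library each with no error bar. Paralogues 9 to 13 have 100% and 75.0% in the upper panel and 66.8 and 31.1 in the lower, while the cluster neighbours have 70.0% in both and medians of 95.9 and 96.8.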

How the data were processed

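Accessible chromatin was measured by ATAC-seq in 1 library of each genotype, grouped by the genotype label. Per the study's methods and the submitters' processing notes, reads were mapped to mm9 with Bowtie 1.0.0, keeping uniquely mapping reads, and broad peaks were called per library with MACS2 2.1.1, without a model and with a shift of −100 bp and an extension of 200 bp (bcl2fastq 2.17.1.14 is named as well). A repeat in which reads do not map uniquely thus gives no peak. No input library is stated, so the deposited fold, a ratio, is enrichment over local background of the same library. The deposited −log10 p and −log10 q are means over a peak, and the deposited score column was not used.

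Start sites were taken from the GENCODE annotation of NCBIM37, and peaks within 1000 bp counted. The 2 identifiers of Hoxa3 were joined by symbol. For each gene the peak with the highest fold was ranked as a percentile within its list. A partner was a peak of the other list overlapping by at least 1 bp. Background and pileup under each peak were solved from fold and Poisson p. The steps were tested on simulated data with known answers. There each fold and p came from a single position and were not means over a peak. That test thus cannot show how well background and pileup are recovered from the deposited means. Read totals were not used here, so depth is relative. Python 3.11.15, numpy 2.4.6, pandas 2.3.3, scipy 1.17.1 and matplotlib 3.10.9 were used. Hox genes and genes of fixed lists of neighbours, cofactors and markers are named, and promoters were chosen as the highest and lowest of each cluster. Some items, which the counts and medians include, are not reported here. Members, lists and alternatives were chosen with earlier results of these data known. Any other gene or peak is named for its value.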

Additional observations from a re-analysis of the deposited data

How the results depend on the processing

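With 1 library per genotype, leaving out a library was not run. No paired analysis was possible because each genotype has 1 library. The settings with pileup and with overlapping highest peaks were chosen after seeing the data. Values are given for control and then for the inactivated library.

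Of the Hox genes, 6 and 3 had a start site peak with −log10 q of at least 5, and 22 and 19 among the 40000 peaks of each library with the highest −log10 p. Genes with a peak in 1 library alone numbered 9 in control within 500 bp, 2 and 0 within 5000 bp, 8 and 4 with −log10 q of at least 2, and 8 and 5 among the 40000. The windows held 49 and 44 peaks covering 5.56% and 3.73% with −log10 q of at least 2, 6 and 4 covering 0.943% and 0.411% with at least 5, and 44 and 37 covering 5.19% and 3.16% among the 40000. Without flanks 9.02% was covered after inactivation. Peaks without a partner numbered 24 and 13 without flanks, 24 in control with −log10 q of at least 2, 4 and 2 with at least 5, 23 in control among the 40000, and 66 and 47 when 50% of both peaks had to overlap.

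By width the median percentiles were 77.2 and 73.7 and the median difference −1.77. The 10 lower and 3 higher genes were 18 and 5 at 10 points and 2 and 1 at 50 points, where the 2 lower genes were posterior. Higher genes numbered 1 by −log10 p and 0 by pileup. With only peaks narrower than the library's median width, the background was 1.58 after inactivation. The sign of the difference reversed by width for Hoxa4 (2.09), Hoxa6 (−27.2), Hoxa7 (−25.9), Hoxa11 (−65.5), Hoxa13 (5.11), Hoxc10 (1.69), Hoxd12 (39.1) and Hoxd13 (10.1), and by pileup for Hoxa6 (−1.37) and Hoxa11 (−22.8). The cause was not tested. Of the summaries, 43 moved under an alternative, and their values are those given above. The other 48 stayed within 1.5 times the count or share reported, or, for medians, within their 95% interval over genes, which are not replicates. Among single genes 31 differences stayed close and 9 moved in size with the same sign.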

Other observations

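Long non-coding genes also start inside the windows. Of 19 annotated there, 10 had a start site peak in control, 8 after inactivation and 7 in both, and 8 had none. Some shared the peak of a Hox gene: 6720416L17Rik, which runs opposite to Hoxd1, at percentile 91.5 and 68.7, and 1700109F18Rik, opposite to Hoxd3, at 88.9 and 77.5. The lincRNA 2700086A05Rik runs opposite to Hoxa4, Hoxa5 and Hoxa6 and to part of Hoxa3. It had a peak shared with no Hox start site at percentile 49.5 in control and 3.89 after inactivation (chromosome 6, 52150008 to 52151401 and 52149981 to 52151167). Hoxa11as, antisense to Hoxa11, stood at 17.6 and 36.9, at different peaks, and the latter was that of Hoxa11. Gm15050, whose peak was also that of Hoxa3, and Gm14424 had peaks in control alone, at 55.04 and 56.4, and Gm11538 after inactivation alone, at 33.8. ATAC-seq does not carry strand, so a peak shared by a Hox gene and its antisense partner cannot be assigned to either.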
